A study of Rattus norvegicus with 3 samples.

Results

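The stathmin family was examined in single cell bodies (somata) of cultured rat hippocampal neurons. Its members were all probe sets whose only gene symbol in the platform annotation was Stmn1, Stmn2, Stmn3 or Stmn4. This gave 5 probe sets for 4 genes, out of 31099 probe sets and 14218 genes with a single-symbol probe set. The series held 3 Affymetrix rat expression arrays in 1 untreated group, each with the amplified RNA of 1 pyramidal soma that was removed with a glass pipette. Dispersed hippocampal cultures had been started from embryos of the Sprague-Dawley strain on day 19 of gestation, and their age at dissection was 14 days. The somata are called cell 1, cell 2 and cell 3 after their replicate numbers, and the labels name neither the animal nor the dish of a soma. The family was selected on the high readings of its members in these same somata, so the levels are a description and no test was made.

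Stathmins are small proteins that bind soluble tubulin dimers and favour the disassembly of microtubules. Phosphorylation of their serines by several kinases releases the tubulin. Stmn1 (stathmin, also OP18) is cytosolic and is made by dividing cells as well as by neurons. Stmn2 (SCG10), Stmn3 (SCLIP) and Stmn4 (RB3) are found mainly in neurons and carry an N-terminal extension that is palmitoylated and anchors them to Golgi and vesicle membranes. Stmn2 is known for its place in growth cones and in the repair of axons, and its messenger RNA depends on the RNA-binding protein TDP-43 in human motor neurons.

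Values are log2 intensities as deposited, and a percentile is the rank of a gene among the 14218 genes of the same array. A probe set reports the brightness of its own probes, so the place of a gene on the array is not an amount of RNA that can be set against another gene. Background was the 95th percentile of 118 silent genes, made of 29 chemosensory receptor genes and 89 genes of other organs, and lay at 9.63, 10.07 and 9.40 log2 in cells 1, 2 and 3. The array medians were 7.23, 7.16 and 7.09 log2. The number of arrays limits the precision, and mean ± SD is the spread over 3 cells.

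Stmn4 (gene 79423, probe set 1370315_a_at) read at the very top of every array. Its log2 intensities over cells 1 to 3 were 13.07, 13.09 and 14.29, or 13.48 ± 0.70 (SD, n = 3 cells). Cells 1 and 2 were nearly level and cell 3 was the high one. Of all genes, 14 read higher than Stmn4 in cell 1, 12 in cell 2 and 4 in cell 3, which placed it at a percentile of 99.93 ± 0.037. The genes that read higher in all 3 cells were Nnat (neuronatin), the ribonuclease gene Rnase1l2 and the beta-tubulin Tubb2b, named after their values were seen. None of the 118 silent genes reached Stmn4 in any cell. The suffix of this probe set marks that it can match several transcripts of the gene, so its value cannot be given to 1 splice form.

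Stmn1 (gene 29332, probe set 1386857_at) read 11.53 in cell 1, 12.79 in cell 2 and 13.26 in cell 3, or 12.52 ± 0.89 log2 (SD, n = 3 cells). Here cell 1 was the low one, and cells 2 and 3 lay closer together. Its percentiles were 99.20, 99.85 and 99.88, with 114, 21 and 17 genes reading higher in cells 1, 2 and 3. It exceeded background by 1.90, 2.71 and 3.86 log2. A single silent gene read higher than Stmn1 in cell 1, and none did so in cells 2 and 3.

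Stmn3 (gene 29246, probe set 1368157_at) read 11.42 in cell 1, 11.40 in cell 2 and 12.17 in cell 3, or 11.67 ± 0.44 log2 (SD, n = 3 cells). As with Stmn4, cells 1 and 2 were level and cell 3 was higher. Its percentiles were 99.03, 98.90 and 99.54, with 137, 157 and 65 genes reading higher. It exceeded background by 1.79, 1.33 and 2.78 log2, and 1, 1 and 0 of the silent genes read higher than Stmn3.

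Stmn2 (gene 84510) was the member that did not stand at the top. Its probe set 1370041_at read 8.36, 8.90 and 10.73 log2 in cells 1, 2 and 3, and its probe set 1370042_at read 7.82, 8.94 and 10.24. Both probe sets lay under background in cells 1 and 2 and above it in cell 3. The median of both put the gene at 9.16 ± 1.22 log2 (SD, n = 3 cells) and at percentiles of 72.1, 85.2 and 95.3. Its difference from background was -1.54 log2 in cell 1, -1.16 in cell 2 and 1.09 in cell 3. Of the 118 silent genes, 24 read higher than Stmn2 in cell 1, 19 in cell 2 and 2 in cell 3. In cells 1 and 2 Stmn2 thus read within the range of the silent genes.

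**Figure D1:**
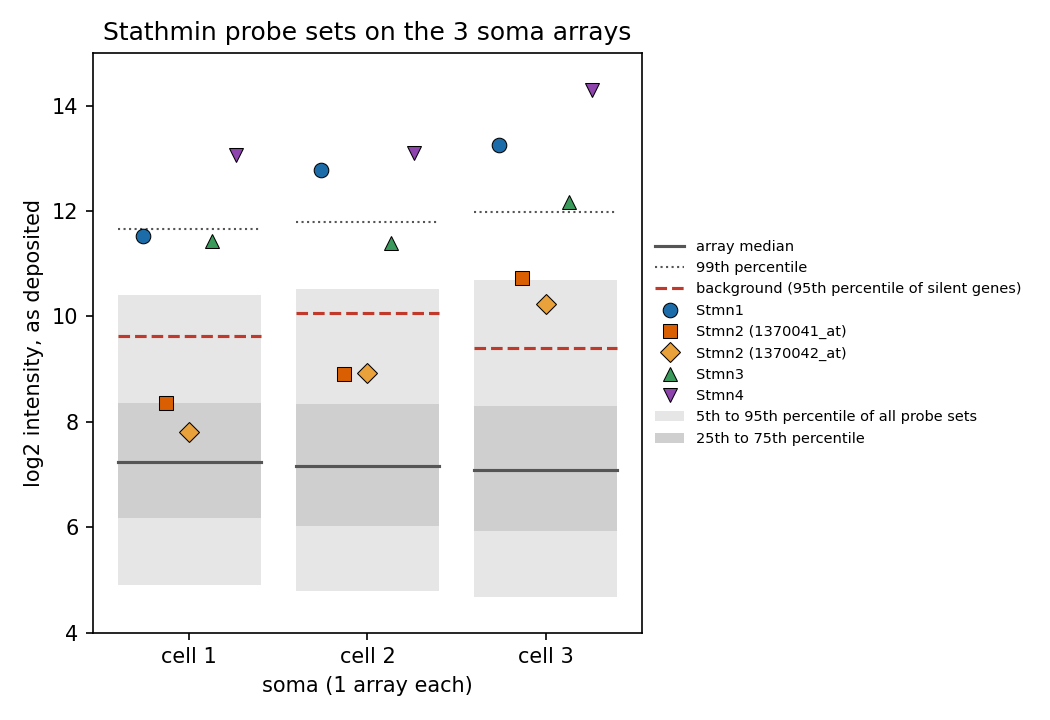
Log2 intensity as deposited (vertical axis) of the 5 stathmin probe sets on the arrays of cells 1, 2 and 3 (horizontal axis). Grey boxes span the 5th to 95th and 25th to 75th percentiles of all probe sets, solid lines are array medians, dotted lines the 99th percentiles and red dashed lines the background. Stmn4 is the highest symbol in each soma, and both Stmn2 symbols lie under the background line in cells 1 and 2 and above it in cell 3.

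Above background were 3 of the 4 members in cell 1, 3 in cell 2 and all 4 in cell 3, where 7.57%, 5.44% and 11.1% of all genes passed. In every cell 3 members passed, namely Stmn1, Stmn3 and Stmn4, against 2.09% of all genes. The same 3 genes lay in the top 5% of every array, as did 1.39% of all genes, and Stmn1 and Stmn4 lay in the top 1% of every array, as did 0.373% of all genes. Stmn3 missed the top 1% in cell 2. Since the members were taken up for readings of this kind, these shares stand beside the counts for orientation alone.

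The order of the members on the array was Stmn4, Stmn1, Stmn3 and Stmn2 in all 3 cells. The percentiles of Stmn1 (99.20 to 99.88) overlapped those of Stmn3 (98.90 to 99.54) over cells. Within each cell Stmn1 ranked higher, at 99.20 against 99.03, 99.85 against 98.90 and 99.88 against 99.54 in cells 1, 2 and 3. Stmn4 (99.90 to 99.97) lay above the range of Stmn1 by a narrow margin, and Stmn2 (72.1 to 95.3) lay below the range of Stmn3. Ranked among all 31099 probe sets, Stmn1 fell to a percentile of 98.8 in cell 1 and stayed above 99 in the other two, and Stmn3 stood at 98.6, 98.2 and 99.2. This order holds the brightness of different probes and was not tested as a difference in RNA.

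Stmn2 was the only member with more than 1 probe set, which allowed their readings to be set side by side. The absolute gap between its probe sets over cells 1 to 3 was 0.55, 0.036 and 0.50 log2, on average 0.36. Among the 3060 genes with exactly 2 probe sets the median of this gap was 1.62 log2, with 90% of the genes between 0.54 and 4.10. Only 1.63% of these genes had a smaller gap than Stmn2. These genes were not matched to Stmn2 for level, and in cells 1 and 2 both of its probe sets were below background, so the narrow gap there does not bear on a level. In cell 3, where both were above background, they stood at percentiles of 95.2 and 92.7 among all probe sets. Stmn1, Stmn3 and Stmn4 rest on 1 probe set each and allowed no such comparison.

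**Figure D2:**
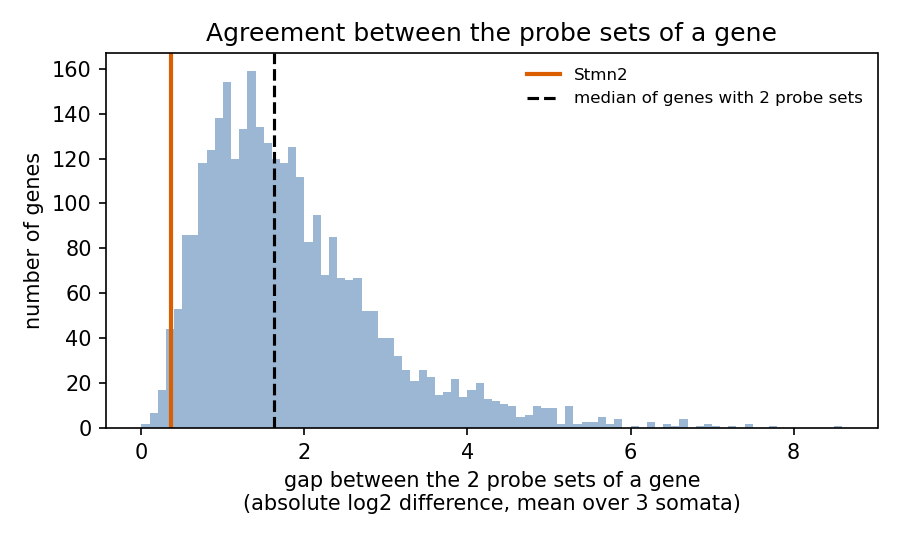
Number of genes (vertical axis) by the gap between their probe sets (horizontal axis, absolute log2 difference averaged over 3 somata) for the 3060 genes with 2 probe sets. The orange line marks Stmn2 at 0.36 and the dashed line the median of 1.62, so Stmn2 lies at the narrow end.

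All 5 stathmin probe sets had their highest value in cell 3, a pattern found in 35.5% of all probe sets and in 60.3% of the 5% of probe sets with the highest mean. After quantile normalisation, which gives the arrays the same distribution, all 5 were still highest in cell 3, against 36.5% of all probe sets and 41.9% of the 5% with the highest mean. Of the 5, 4 were lowest in cell 1, against 38.8% of all probe sets as deposited and 42.4% after quantile normalisation. Both Stmn2 probe sets are among the 4, but their values in cells 1 and 2 were below background and have no order. Stmn4 was lower in cell 1 than in cell 2 by only 0.03 log2. That sign changed with arrays centred on their median and scaled. Of the 4, Stmn1 alone was thus clearly lowest in cell 1, and the count is no pattern of the family. The remaining probe set, of Stmn3, read slightly lower in cell 2 than in cell 1 (a difference of -0.02 log2).

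The size of the difference between cell 3 and cell 1 varied among the 3 members above background in both. It was 1.73 log2 for Stmn1, 1.22 for Stmn4 and 0.75 for Stmn3, where the median of all probe sets was 0.12 and 90% lay between -3.58 and 2.55. Of all probe sets, 86.7% had a smaller difference than Stmn1, 77.6% than Stmn4 and 66.5% than Stmn3. After quantile normalisation the differences were 1.44 for Stmn1, 1.04 for Stmn4 and 0.43 for Stmn3. Stmn2 was above background in cell 3 alone, so its change has no measured size and is not ranked with the others.

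Between cells 2 and 1 Stmn1 was higher in cell 2 by 1.26 log2. Stmn3 and Stmn4 differed by -0.02 and 0.03 log2, which is small beside the spread of all probe sets (90% between -3.23 and 2.60). With arrays centred on their median and scaled by the spread of their middle values, a step that the methods of the study name, Stmn4 was lower in cell 2 than in cell 1 (-0.20). From cell 2 to cell 3 Stmn4 was higher by 1.20 log2, Stmn3 by 0.77 and Stmn1 by 0.47. Stmn2 was below background in cells 1 and 2, and its differences from them are not given.

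**Figure D3:**
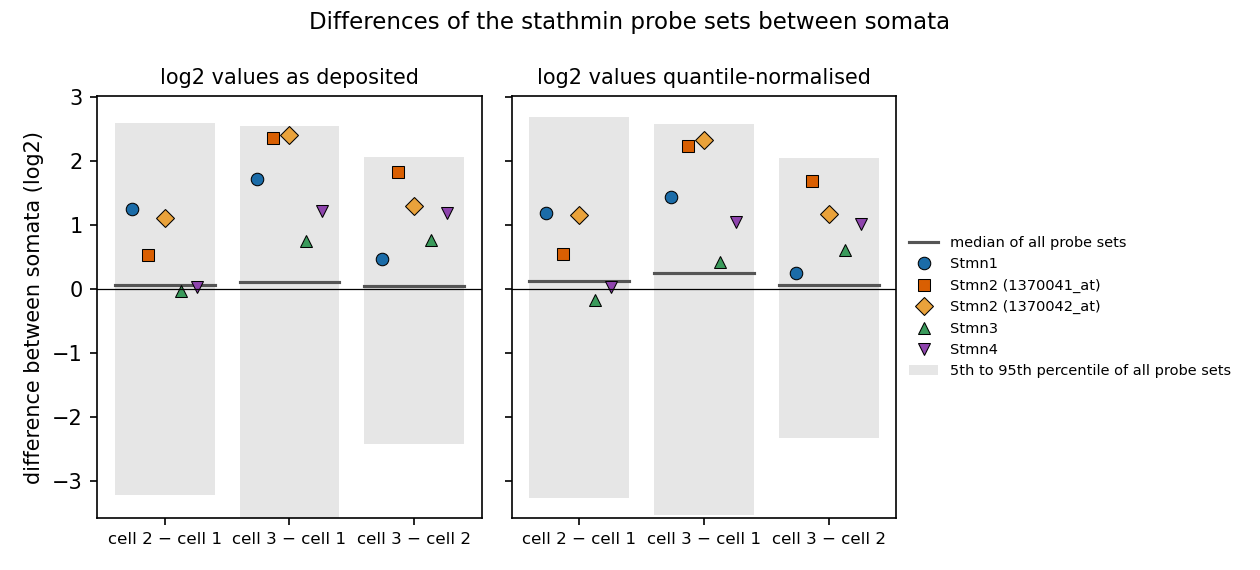
Difference in log2 intensity between each pair of somata (vertical axis) for the 5 stathmin probe sets, as deposited (left) and after quantile normalisation (right). Grey boxes hold 90% of all probe sets and dark lines their median; all stathmin symbols lie inside the boxes, and those of Stmn2 start from values below background in cells 1 and 2 and are not measured changes.

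How far the members varied over the cells was set beside the 500 probe sets with the nearest mean after quantile normalisation. Stmn1 had an SD of 0.77 log2, above 85.8% of its 500 neighbours, whose median SD was 0.35. Stmn4 had an SD of 0.59, above 78.8% of its neighbours (median 0.33), and Stmn3 had 0.31, above 35.2% (median 0.41). Only 62, 59 and 19 probe sets read higher than Stmn4 in cells 1, 2 and 3. Most of its 500 neighbours were thus dimmer and not of its level. Stmn1 varied more than most of the 500 probe sets nearest to it in mean. However, 372, 86 and 63 probe sets read higher than Stmn1 in cells 1, 2 and 3. In cells 2 and 3 most of its 500 neighbours were thus dimmer and not of its level. No SD is compared for Stmn2, since 2 of its 3 values were below background.

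Technical readings of the arrays also differed between cells. The 18 hybridisation control probe sets, which report labelled RNA added to each hybridisation, averaged 12.35, 12.78 and 13.17 log2 in cells 1, 2 and 3. The 3' end of Gapdh read 10.47, 11.42 and 11.65 log2, above background in each cell, and its 5' end read 10.26, 8.37 and 8.71, above background in cell 1 alone. Beta-actin was below background at both ends in every cell, so no 3' to 5' difference is given for it. The controls, like Stmn1, were lowest in cell 1 and highest in cell 3, and the part of these readings in the differences between cells was not tested.

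Markers were read to check the label of pyramidal neurons. Neurons in general had a median percentile of 85.6, 84.3 and 82.0 over 15 genes, from Mapt (98.7 ± 1.15) to Uchl1 (15.4 ± 7.41), with 4, 2 and 7 above background, where 7.57%, 5.44% and 11.1% of all genes passed. Of the 15, 1 was above it in every cell. The 9 measured pyramidal genes had medians of 55.3, 51.2 and 83.0, from Neurod2 (99.9 ± 0.039) to Tbr1 (13.5 ± 10.9), with 2, 2 and 3 above background, so part of the defining markers did not read high. Interneuron genes ranged from Dlx1 (74.9 ± 28.1) to Gad2 (7.42 ± 6.74), with 0, 1 and 0 of 9 above background in cells 1, 2 and 3. Astrocyte genes ranged from Slc1a3 (80.2 ± 4.88) to Aldh1l1 (14.9 ± 14.4), with 2, 0 and 0 of 9 above background and a summed linear intensity of 4429, 1342 and 1318. Oligodendrocyte genes ranged from Mog (78.0 ± 3.85) to Cldn11 (33.3 ± 14.9), with 0, 1 and 0 of 9 above background. Vascular and fibroblast genes ranged from Vwf (99.8 ± 0.050) to Col1a2 (30.6 ± 28.1), and Vwf alone passed background. At 12.45, 12.65 and 12.66 log2 Vwf read higher than Stmn3 in each cell. It read higher than Stmn1 in cell 1 and lower in cells 2 and 3. A place at the top of the array was thus not limited to markers of neurons, and the source of the Vwf reading was not tested. Microglial genes ranged from C1qc (80.0 ± 16.8) to Aif1 (20.6 ± 16.5), with 4, 0 and 0 of 10 above background and a summed linear intensity of 10103, 1440 and 1495. The microglial median percentile was 81.1, 46.9 and 24.1 in cells 1, 2 and 3. This median rested on values below background and has no order over cells. Microglial genes passed background in cell 1 alone, where Stmn1 was lowest. The part of microglial RNA in the differences of Stmn1 was not tested.

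Because dividing cells also make Stmn1, their markers are given beside it. Of 15 such genes 14 were measured, with median percentiles of 43.7, 24.4 and 33.4 in cells 1, 2 and 3. Above background were 1, 1 and 2 of the 14, where 7.57%, 5.44% and 11.1% of all genes passed. Counts this near the share of all genes are no result about the list. Their summed linear intensity was 2732, 2927 and 4562. Pcna, a replication clamp, led the list at 96.0 ± 2.39 and read 9.86, 10.31 and 11.37 log2, above background in each cell. Apart from Pcna, and another gene in cell 3 alone, the sum was made of values below background. The cyclin Ccna2 closed the list at 9.12 ± 7.85. The part of such RNA in the reading of Stmn1 was not tested.

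The genes closest to each member were taken by the mean absolute difference in log2 value over the 3 cells. Nearest to Stmn4 were the beta-tubulin Tubb2a (0.17 log2), the reticulon Rtn1 (0.20) and the ATP synthase subunit Atp5mc3 (0.26). Tubb2a read 12.96, 13.47 and 14.31 in cells 1, 2 and 3. Nearest to Stmn1 were Macf1, which links microtubules to actin (0.33), the cell surface receptor Boc (0.36) and the ribosome assembly factor Utp20 (0.38). Nearest to Stmn3 were the glycolytic enzyme Pfkp (0.14), Dbndd2 (0.15) and the respiratory chain subunit Uqcr10 (0.17). Nearest to Stmn2 were the growth factor Pdgfa (0.11), Lyrm1 (0.12) and the centromere protein Cenpb (0.13). Nearness was taken over the same 3 cells and is a description alone, and for Stmn2 it rests on values below background in cells 1 and 2.

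Genes that act on or with stathmins were read from 9 lists of 115 genes, of which 100 were measured. Their median percentile was 65.9, 65.5 and 69.7 in cells 1, 2 and 3, or 67.0 ± 2.31 (SD, n = 3 cells), where the median of all genes is 50 by construction. In cells 1, 2 and 3 taken singly, 11, 12 and 31 of the 100 were above background, where 7.57%, 5.44% and 11.1% of all genes passed. Above background in every cell were 6 of the 100 (6.00%, against 2.09% of all genes). The 6 were Tubb2b, Tubb2a, Tbca, Mapt, Dpysl2 and Mapk14.

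Tubulins had a list median of 82.4 ± 9.89 over 11 genes, the gamma-tubulin Tubg1 included. Tubb2b (99.96 ± 0.045) and Tubb2a (99.94 ± 0.053) stood level with Stmn4, and Tubb4b followed at 95.2 ± 6.48. The gamma-tubulin Tubg1 was lowest at 36.5 ± 22.3. Alpha-tubulins Tuba1a, Tuba1b and Tuba1c had no single-symbol probe set and were not analysed here. Among 7 genes that fold tubulin dimers (63.8 ± 7.55), the cofactor Tbca reached 96.5 ± 1.01, Tbcc 86.7 ± 13.6 and Tbcel 80.6 ± 9.01, and the GTPase Arl2 was lowest at 37.5 ± 14.7. Of these 7, 2 were above background in each cell, and Tbcel and Arl2 were so in no cell.

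The list of severing enzymes and depolymerising kinesins had a median of 27.3 ± 10.8 over 7 genes, with 0 above background in each cell, where 7.57%, 5.44% and 11.1% of all genes passed, so a count of 0 among so few is no result about the list. The kinesin Kif2a was the highest at 80.2 ± 2.56, before Fignl1 (46.2 ± 17.5) and Kif2c (44.9 ± 25.7), and the katanin subunit Katna1 was lowest at 12.1 ± 4.26. Proteins that stabilise microtubules had a median of 78.9 ± 11.5 over 22 genes, of which 3, 4 and 10 were above background in cells 1, 2 and 3, as were 11, 12 and 31 of all 100 partner genes. Mapt (tau) stood at 98.7 ± 1.15, Dpysl2 (CRMP2, which binds tubulin dimers) at 96.3 ± 2.17 and Tppp at 93.8 ± 6.71, while Dpysl3 was lowest at 34.2 ± 18.8.

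Kinases that phosphorylate stathmins had a median of 39.1 ± 18.8 over 18 genes, with 59.9, 23.4 and 34.0 in cells 1, 2 and 3. Mapk14 (p38 alpha) led at 97.3 ± 2.55, followed by Camk2b (84.3 ± 7.48) and Cdk5 (65.6 ± 32.2), and the mitotic kinase Aurkb was lowest at 17.4 ± 13.6. The value of Camk2b is the midpoint of 2 probe sets that differed by 5.43 log2 on average. Phosphatase subunits stood higher, at 84.0 ± 9.40 over 8 genes, with 0, 0 and 5 of 8 above background in cells 1, 2 and 3, where 5.44% to 11.1% of all genes and 11, 12 and 31 of the 100 partner genes passed. Ppp3ca (calcineurin) lay at 91.9 ± 5.25, Ppp2cb at 91.0 ± 5.47, Ppp1ca at 89.2 ± 10.2 and Ppp3r1, the lowest, at 47.4 ± 3.18. Of the 18 kinases, 2, 1 and 2 were above background in cells 1, 2 and 3, where 7.57%, 5.44% and 11.1% of all genes passed. The kinase median thus rested on values below background and has no order over cells. With 0 phosphatases above background in cells 1 and 2, the change of their median to cell 3 has no measured size.

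Enzymes that add or remove palmitate, the lipid that holds Stmn2, Stmn3 and Stmn4 on membranes, had a median of 54.9 ± 6.20 over 9 genes. The thioesterases Lypla2 (94.0 ± 4.96) and Lypla1 (78.6 ± 22.3) and the transferase Zdhhc7 (71.9 ± 18.7) were highest, and Ppt1 was lowest at 20.8 ± 6.20. Of the 9, 0, 1 and 3 were above background in cells 1, 2 and 3, and Zdhhc7 and Ppt1 were so in no cell. The median of these enzymes thus rested on values below background. RNA regulators had a median of 52.0 ± 8.08 over 7 genes, with the neuronal ELAV protein Elavl3 at 81.1 ± 17.1, Celf2 at 61.3 ± 4.86, Elavl4 at 58.4 ± 29.7 and the corepressor Rcor1, the lowest, at 13.05 ± 5.75. Of the 7, 0, 0 and 1 were above background in cells 1, 2 and 3, so this median also rested on values below background. With the brightest probe set of each gene the median of this list was 69.7. Tardbp, which encodes TDP-43, lay at 34.2, 41.6 and 68.3 in cells 1, 2 and 3, and Rest, a repressor of neuronal genes, at 43.0, 58.6 and 54.5. Both genes were below background in every cell, so these percentiles have no order over cells. Tardbp and Rest were named for their known roles, outside the rule for named genes and after their values were seen.

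Genes of axon growth and maintenance had a median of 75.5 ± 3.68 over 11 genes. Marcksl1, which binds actin and membranes, lay at 95.1 ± 3.99, the NADase Sarm1 at 91.1 ± 13.6 and the growth cone protein Gap43 at 88.3 ± 7.24. The value of Gap43 is the midpoint of 2 probe sets that differed by 5.68 log2 on average, more than in 95% of genes with 2 probe sets. Uchl1 was lowest at 15.4 ± 7.41. Of the 11 genes, 1, 2 and 2 were above background in cells 1, 2 and 3, so the list median rested on values below background.

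**Figure D4:**
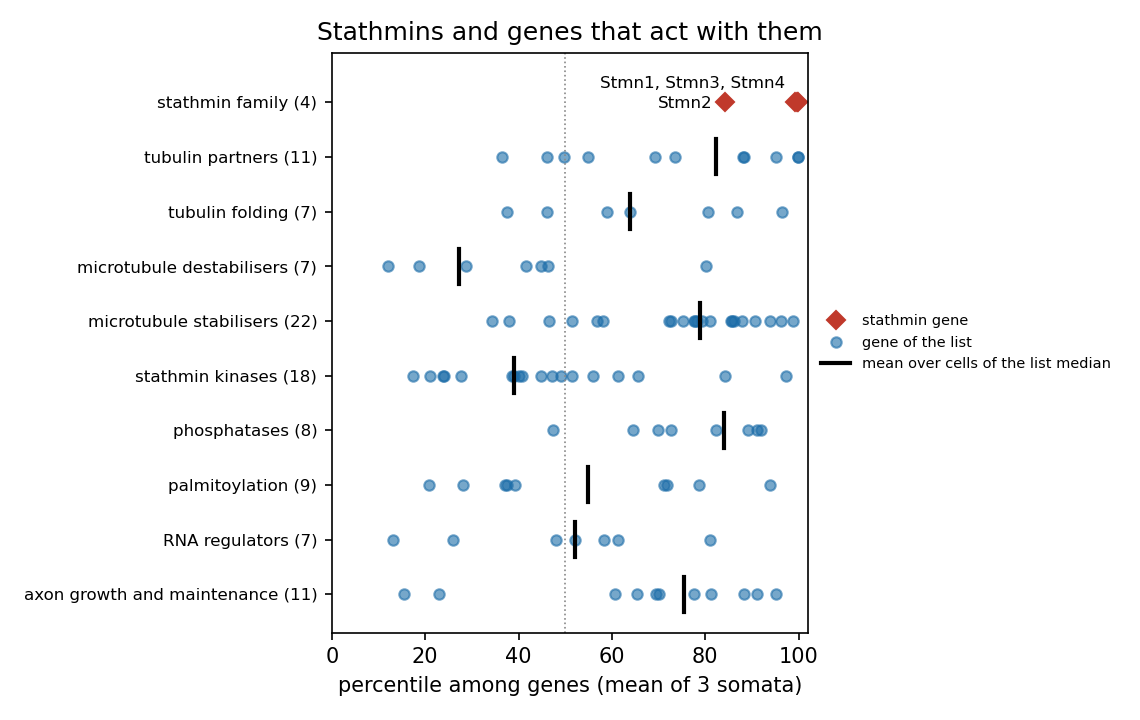
Percentile among genes, averaged over 3 somata (horizontal axis), of the stathmin genes (red diamonds) and of each measured gene in 9 lists of genes that act with them (blue points), with the mean over cells of the list median as a black bar and the number of genes in brackets. Stmn1, Stmn3 and Stmn4 lie above 99, level with a pair of tubulins. Microtubule destabilisers and stathmin kinases have medians under 50, which rest on values below background and are no result about those lists.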

How the data were processed

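Amplified RNA of 3 single rat somata was hybridised to 3 arrays. Values deposited for each probe set by the authors are log2 intensities, and the submitters' processing notes name RMA 2.0. Each RNA had passed through repeated rounds of amplification, which can shorten transcripts toward their 3' end. The methods of the study describe dendrite pools rather than these somata and state median centring and range scaling, which the deposited values do not show. No genome build was given in the sources read. Of 31099 probe sets, 20832 carried 1 symbol, 436 several and 9831 none in the platform annotation, which can be old. The gene numbers of all 4 members were found in the RefSeq table of assembly GRCr8 with the same symbol.

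A gene took the median of its probe sets, and genes were ranked within each array with mean ranks for ties (Python 3.11.15, pandas 2.3.3). The functions were tested on simulated data. No group comparison exists, so no p-value was computed. Members, gene lists and rules were chosen with earlier results of these data known. Named are all members, the 3 highest and the lowest gene of each partner list by mean percentile, the 3 genes nearest to each member, the highest and the lowest gene of each marker list, and the Gapdh and beta-actin controls. Other names are marked as chosen after their values were seen. Alternatives covered the choice of probe set, the rank universe, ties, the background genes and limit, the scaling and leaving out each cell. Array signal holds no read depth.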

Additional observations from a re-analysis of the deposited data

How the results depend on the processing

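With the brightest probe set of each gene, the mean percentile was 99.2 for Stmn1, 98.1 for Stmn3, 99.8 for Stmn4 and 74.7 for the median of all partner genes. Ranked among all probe sets, it was 98.7 for Stmn3 and 99.8 for Stmn4. These moved by more than the SD over cells, which is small for genes at the top of the array, and Stmn2 moved by less than its SD. Without cell 1, 2 or 3 in turn the means ranged from 99.53 to 99.87 for Stmn1, 78.7 to 90.2 for Stmn2, 98.96 to 99.29 for Stmn3 and 99.91 to 99.94 for Stmn4, and from 65.7 to 67.8 for the partner genes. The difference between cells 3 and 1, given in percentile points, was 0.994 for Stmn1, 20.0 and 28.5 for the probe sets of Stmn2, 0.622 for Stmn3 and 0.138 for Stmn4, where those of Stmn2 start from a value below background in cell 1. The sign changed in 1 case: with centred and scaled arrays, cell 2 minus cell 1 was -0.20 for Stmn4. The 3 members above background in every cell were still 3 with the stricter limit at the 99th percentile and with either kind of silent gene alone. Without probe sets that can match several transcripts Stmn4 was not measured, and that count and the count of the top 5% were 2. No paired analysis was possible because the series has a single group. Dim genes such as Stmn2 in cells 1 and 2 are limited by signal over background.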
